A study of Ericerus pela with 8 samples.

Results

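In Ericerus pela, a wax-making scale insect, male second-instar larvae were compared with male first-instar larvae. The comparison takes 2 of the 8 RNA-seq libraries of the series, 1 per stage, chosen by their labelled sex and stage. The other libraries are second-instar females, first-instar females, female adults (early-, middle- and late-stage) and male adults, and they serve here to place the male step. Libraries came from washed and homogenised insects, and the labels name no tissue, treatment or genotype. How many insects went into a library is not given in the labels. Features were unigenes, which are assembled transcripts counted without a genome. Many are short pieces, with a median length of 241 bases, so several unigenes of the same description can come from 1 gene.

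Scale insects feed on plant sap and cover themselves with wax from epidermal glands. In this species the second-instar male is the stage that lays down the thick white wax, which is made largely of esters of very long-chain acids and alcohols. Such esters are built by elongating fatty acids, reducing part of them to alcohols with fatty acyl-CoA reductases and joining acid and alcohol with acyltransferases. Larvae also moult between instars. A pulse of the steroid ecdysone starts the moult, old chitin is digested, and new cuticle proteins and chitin are laid down. Juvenile hormone sets the larval character of a moult and is cleared by juvenile hormone esterases and epoxide hydrolases.

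The male second-instar library held 2182108 uniquely assigned reads and the male first-instar library 2303199, a ratio of 0.947. Totals over all 8 libraries lay between 1460674 and 2303199 reads. At these depths 3 reads, the floor used for an unread unigene, stood for 1.37 CPM (reads scaled by the library total) in second-instar males and 1.30 CPM in first-instar males. Unigenes with a best protein match took 54.1% of reads in second-instar males and 57.1% in first-instar males. With 1 library a stage there is no spread between replicates and no test, and the intervals below are exact binomial intervals of 95% that cover counting error only. The insects were bulk samples, so fewer cells of a type and less RNA per cell cannot be told apart. A unigene with at least 20 reads in either library is called higher or lower here when 1 CPM was added to both levels and their log2 ratio then reached 2 or -2.

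In the male pair 36667 unigenes reached the 20 reads, and of these 1448 rose (3.95%) and 1563 fell (4.26%) at the second instar by this rule, 8.21% in all. The median log2 ratio was -0.04. The unigenes that rose took 5.36% of second-instar male reads and 0.544% of first-instar male reads. Those that fell took 0.474% of second-instar male reads and 4.78% of first-instar male reads. Among unigenes with a protein match, 359 of 18938 rose (1.90%) and 698 fell (3.69%), 5.58% in all. Among those with no match, 1089 of 17729 rose (6.14%) and 865 fell (4.88%). Of the unigenes that rose 24.8% had a match, against 53.1% of those that did neither. All list members have a match, so the matched shares, 1.90% higher and 3.69% lower, are the background for every list count below.

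**Figure D1:**
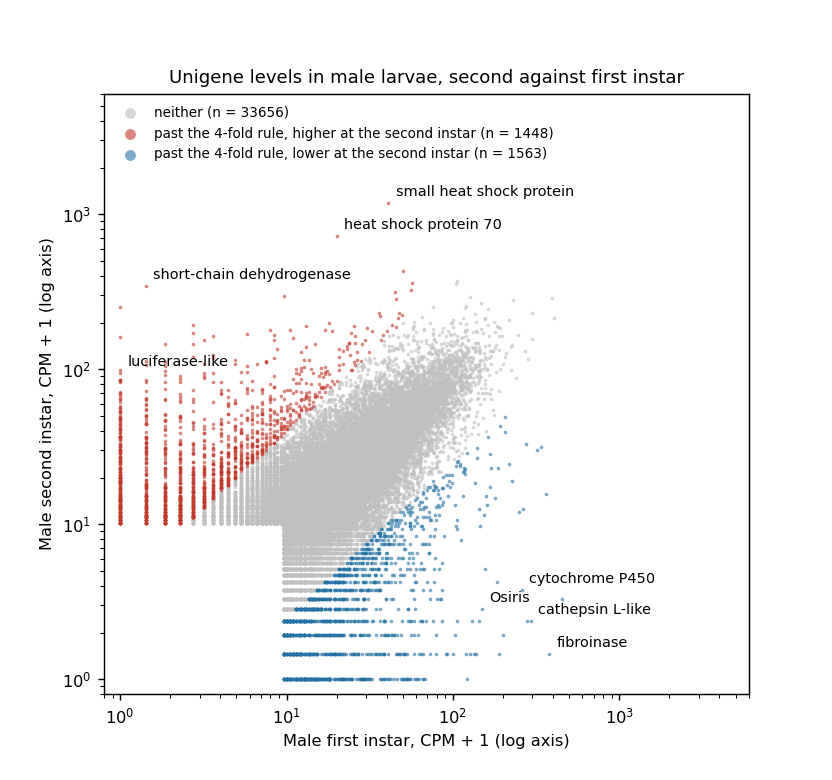
Level of each unigene in male second-instar larvae (vertical, CPM + 1, log axis) against male first-instar larvae (horizontal, CPM + 1, log axis), 1 point per unigene. Red points passed the 4-fold rule upward (1448), blue points downward (1563), and grey points did neither (33656). The dots at the left edge had 0 reads in first-instar males and those at the lower edge had 0 reads in second-instar males.

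The named unigenes with the highest ratios were enzymes and transporters that were almost unread at the first instar. A short-chain dehydrogenase/reductase, of a family that oxidises or reduces alcohols, ketones and many lipids, had 750 reads in second-instar males and 1 read in first-instar males (Unigene115428_FOB). That is 792-fold higher, with an interval of 142-fold to 31300-fold. A putative firefly luciferase, of the family of adenylate-forming enzymes that also holds the acyl-CoA ligases, had 204 reads in second-instar males and 0 in first-instar males, which is at least 71.8-fold higher (Unigene155797_FOB). Also among the 12 highest ratios were a feruloyl esterase-like protein, 3 carboxylesterases, a peroxidase, an AMP-dependent CoA ligase, an endothelial lipase, a prostaglandin-E(2) 9-reductase, a juvenile hormone esterase-like protein and a sugar transporter. The 12 had 120 to 750 reads in second-instar males and 0 or 1 read in first-instar males, and 9 of them were at 0 there.

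The same 12 unigenes had a narrow pattern over the other libraries. Each had at least 35 reads in the middle-stage female adults and at least 9 reads in the late-stage female adults. None had more than 3 reads in first-instar females, second-instar females, early-stage female adults or male adults. For the dehydrogenase/reductase the reads were 1, 750 and 0 in first-instar, second-instar and adult males. In females it had 0, 1, 2, 243 and 48 reads, in order of first instar, second instar, early, middle and late adults (Unigene115428_FOB). The luciferase-like unigene had 0, 204 and 0 reads over the male stages and 0, 0, 0, 135 and 105 over the female stages (Unigene155797_FOB).

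**Figure D2:**
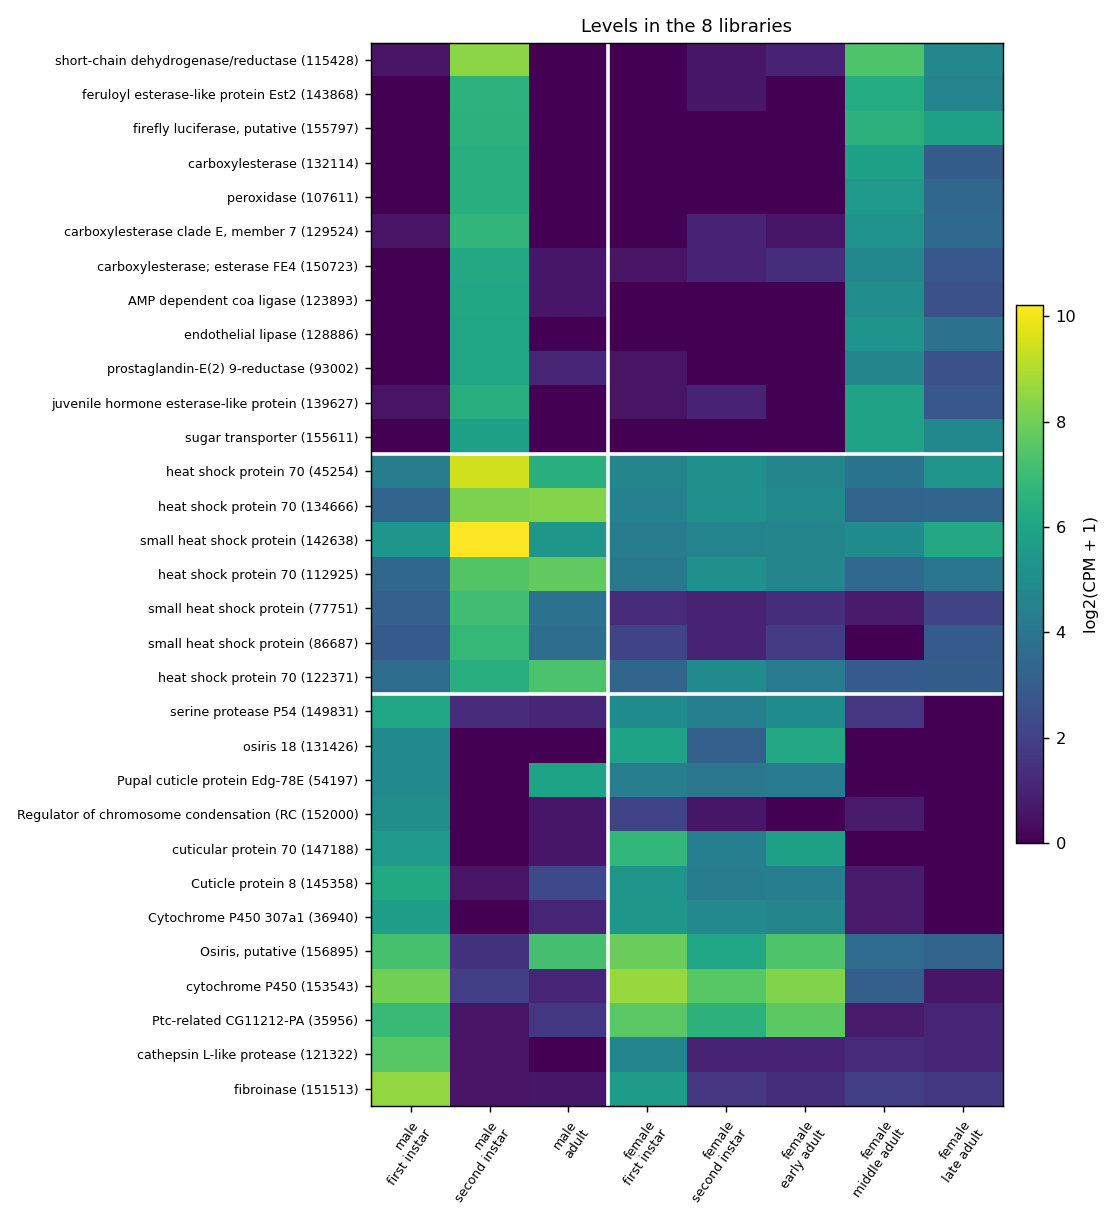
Levels of named unigenes in the 8 libraries, as log2(CPM + 1) by colour, with unigene numbers in brackets. The upper block holds the 12 highest male ratios, the middle block heat shock proteins past the rule, and the lower block the 12 lowest male ratios. The upper block is bright in second-instar males and middle-stage female adults, and the lower block is dark in second-instar males and in middle-stage and late-stage female adults. The lower block is mostly dark in male adults too, where 2 of its 12 unigenes had at least 20 reads.

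Esterases held more unigenes that rose than any other list described here. These enzymes split ester bonds in lipids, hormones, pheromones and plant or insecticidal compounds. Of 58 esterase unigenes measured, 28 rose and 1 fell, with a median log2 ratio of 1.75, beside 1.90% that rose over all matched unigenes. The 28 summed to 1060 CPM in second-instar males and 28.2 CPM in first-instar males. Their folds ran from 5.19 to 242, and 12 of them are lower bounds. Those 12 had 0 reads in first-instar males, where the highest of the 28 had 13.

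Several esterases gave large counts. A carboxylesterase clade E unigene had 229 reads in second-instar males and 1 in first-instar males, 242-fold higher with an interval of 43.0 to 9590 (Unigene129524_FOB). Alpha-esterase 41 had 260 reads in second-instar males and 4 in first-instar males, 68.6-fold higher with an interval of 26.5 to 254 (Unigene103830_FOB). The feruloyl esterase-like protein Est2, a kind of enzyme known for releasing phenolic acids from plant cell walls, had 212 reads in second-instar males and 0 in first-instar males, at least 74.6-fold higher (Unigene143868_FOB). The esterase that fell was an esterase FE4 unigene with 21 reads in second-instar males and 106 in first-instar males, 4.78-fold lower, a unigene named after its values were seen (Unigene80832_FOB).

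Juvenile hormone esterases moved with them. Of 36 unigenes with this description, 17 rose and 1 fell, with a median log2 ratio of 1.60. The 17 summed to 516 CPM in second-instar males and 17.8 CPM in first-instar males. A juvenile hormone esterase-like protein had 183 reads in second-instar males and 1 in first-instar males, 193-fold higher with an interval of 34.2 to 7670 (Unigene139627_FOB). Another had 135 reads in second-instar males and 2 in first-instar males, 71.2-fold higher with an interval of 19.3 to 594 (Unigene141269_FOB). The description is a best match within the carboxylesterase family, and no file shows which of these enzymes act on juvenile hormone.

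Other juvenile hormone proteins stayed within 4-fold. Juvenile hormone epoxide hydrolase 2, another enzyme of hormone breakdown, had 114 reads in second-instar males and 111 in first-instar males (Unigene118332_FOB). Methoprene tolerant, the juvenile hormone receptor, had 80 reads in second-instar males and 95 in first-instar males (Unigene129829_FOB). The juvenile hormone binding protein had 49 reads in second-instar males and 47 in first-instar males (Unigene127358_FOB). These unigenes were named after their values were seen. The list as a whole, esterases included, held 47 measured unigenes, of which 17 rose and 1 fell.

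Over the 8 libraries the 28 esterases that rose had their highest level in second-instar males in 24 cases and in middle-stage female adults in 4. Their summed level was 28.2, 1060 and 20.1 CPM in first-instar, second-instar and adult males. In females it was 44.1, 68.3, 60.9, 1000 and 249 CPM, in order of first instar, second instar, early, middle and late adults. The 17 juvenile hormone esterases that rose had a less even pattern: 10 were highest in second-instar males, 3 in male adults, 2 in early-stage, 1 in middle-stage and 1 in late-stage female adults. Of these, Unigene154045_FOB had 6, 179 and 269 reads in first-instar, second-instar and adult males.

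Enzymes for making wax gave no common direction. Fatty acid synthase and acetyl-CoA carboxylase, which build the acyl chain, were measured as 56 unigenes, of which 4 rose, 3 fell and 49 did neither, with a median log2 ratio of 0.01. The summed level of the list was 2070 CPM in second-instar males and 1920 CPM in first-instar males. The 4 that rose were fatty acid synthase unigenes, summing to 131 CPM in second-instar males and 11.3 CPM in first-instar males. The unigene with the most reads among them had 121 reads in second-instar males and 12 in first-instar males, 10.6-fold higher with an interval of 5.87 to 21.2 (Unigene25357_FOB). Another had 79 reads in second-instar males and 7 in first-instar males, 11.9-fold higher with an interval of 5.52 to 30.6 (Unigene27075_FOB). In the other direction a fatty acid synthase unigene had 0 reads in second-instar males and 50 in first-instar males, at least 15.8-fold lower (Unigene35408_FOB). In females this unigene had 123, 52, 172, 0 and 0 reads over the 5 stages in order.

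Acyltransferases and fatty acyl-CoA reductases, the enzymes nearest to wax ester assembly, were measured as 39 unigenes. Of these 7 rose and 4 fell, with a median log2 ratio of -0.01. The 7 that rose summed to 399 CPM in second-instar males and 48.6 CPM in first-instar males. An acyl-CoA wax alcohol acyltransferase 2-like unigene, of a family that esterifies long-chain alcohols in mammals, had 110 reads in second-instar males and 8 in first-instar males, 14.5-fold higher with an interval of 7.11 to 34.5 (Unigene135904_FOB). A diacylglycerol O-acyltransferase unigene, for the last step of triacylglycerol synthesis, had 284 reads in second-instar males and 48 in first-instar males, 6.24-fold higher with an interval of 4.59 to 8.67 (Unigene122819_FOB).

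Fatty acyl-CoA reductases, which turn acyl-CoA into fatty alcohol, went both ways. Fatty acyl-CoA reductase 1 had 145 reads in second-instar males and 16 in first-instar males, 9.57-fold higher with an interval of 5.69 to 17.2 (Unigene105450_FOB). Outside second-instar males and first-instar males this unigene had at most 7 reads, in male adults, with 0, 1, 2, 1 and 3 reads over the female stages. A fatty-acyl CoA reductase I unigene had 11 reads in second-instar males and 65 in first-instar males, 5.60-fold lower (Unigene88321_FOB). A male sterility domain protein, the domain name of this reductase family, had 8 reads in second-instar males and 49 in first-instar males, 5.80-fold lower (Unigene35140_FOB). The pair that fell was named after its values were seen.

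Elongases and desaturases leaned downward. Elongases add carbons to an acyl chain and desaturases put in a double bond. Of 24 unigenes measured 2 rose and 5 fell, with a median log2 ratio of -0.81, and 17 of the 24 ratios were below 0. The list summed to 354 CPM in second-instar males and 790 CPM in first-instar males. An elongase had 39 reads in second-instar males and 516 in first-instar males, 12.5-fold lower with an interval of 9.05 to 17.8 (Unigene100222_FOB). A delta-9 desaturase had 2 reads in second-instar males and 110 in first-instar males, 52.1-fold lower with an interval of 14.1 to 436 (Unigene101988_FOB). The Z9-desaturase unigene with the most reads had 9 reads in second-instar males and 149 in first-instar males, 15.7-fold lower with an interval of 8.04 to 35.0 (Unigene106897_FOB).

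The desaturases that fell were 4 short unigenes of 184 to 248 bases, and whether they come from 1 transcript was not tested (Unigene101988_FOB, Unigene83195_FOB, Unigene65083_FOB, Unigene106897_FOB). First-instar females had 12 to 24 reads of each, and no adult library had more than 3. The elongase that rose had 37 reads in second-instar males and 0 in first-instar males, at least 13.0-fold higher (Unigene147440_FOB). It also rose in second-instar females, with 79 reads there and 7 in first-instar females. A second riser was a longer Z9-desaturase with 42 reads in second-instar males and 5 in first-instar males, 8.87-fold higher (Unigene151891_FOB). These risers and the 184-base unigene were named after their values were seen.

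Of 39 acyl-CoA ligases and luciferase-like proteins, which activate fatty acids for use, 3 rose and 0 fell, with a median log2 ratio of -0.09. The AMP-dependent CoA ligase among the highest ratios had 145 reads in second-instar males and 0 in first-instar males, at least 51.0-fold higher (Unigene123893_FOB). Fatty acid breakdown had 1 riser and 0 fallers among 60 unigenes, near the 1.90% that rose over all matched unigenes. The riser, a carnitine O-palmitoyltransferase 2, had 36 reads in second-instar males and 5 in first-instar males (Unigene27488_FOB). That is 7.60-fold higher, with an interval of 2.97 to 24.8. Bubblegum, a very long-chain acyl-CoA synthetase in Drosophila, was not caught by the word pattern of the ligase list. The count of 0 fallers there thus leaves it out. It fell, with 32 reads in second-instar males and 832 in first-instar males, 24.6-fold lower with an interval of 17.3 to 36.3 (Unigene157395_FOB). This unigene was among the 8 largest losses in CPM.

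Of 35 lipases, which split stored or dietary fats, 6 rose and 3 fell, with a median log2 ratio of 0.44. Pancreatic lipase related protein 1 had 788 reads in second-instar males and 128 in first-instar males, 6.50-fold higher with an interval of 5.38 to 7.89 (Unigene19105_FOB). Endothelial lipase had 139 reads in second-instar males and 0 in first-instar males, at least 48.9-fold higher (Unigene128886_FOB). Of 25 lipid carriers, which move lipids through the blood or between membranes, 0 passed the rule in either direction, beside 5.58% over all matched unigenes. Apolipophorin, the main insect blood lipid carrier, had 181 reads in second-instar males and 249 in first-instar males (Unigene155837_FOB).

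A pair of CRAL-TRIO domain proteins, of a family that binds small lipid-like molecules, were among the largest gains. The larger had 390 reads in second-instar males and 16 in first-instar males, 25.7-fold higher with an interval of 15.6 to 45.5 (Unigene133642_FOB). The other had 333 reads in second-instar males and 17 in first-instar males, 20.7-fold higher with an interval of 12.7 to 35.9 (Unigene125511_FOB). Both were read in every female library, with 21 to 167 reads, and had 0 reads in male adults. Among haem peroxidases 2 of 28 rose and 1 fell. A peroxidase had 182 reads in second-instar males and 0 in first-instar males, at least 64.0-fold higher (Unigene107611_FOB), and a peroxidasin-like protein had 177 reads in second-instar males and 2 in first-instar males, 93.4-fold higher with an interval of 25.5 to 777 (Unigene110296_FOB).

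Heat shock proteins had the highest list medians. These chaperones hold or refold damaged proteins and respond to heat and other stress. All 3 small heat shock protein unigenes measured rose, with a median log2 ratio of 3.95. The largest gain of any named unigene was a small heat shock protein with 2581 reads in second-instar males and 92 in first-instar males, 29.6-fold higher with an interval of 24.0 to 36.9 (Unigene142638_FOB). Of 15 unigenes of the 70 and 90 families 10 rose and 0 fell, with a median log2 ratio of 2.82. A heat shock protein 70 unigene had 1565 reads in second-instar males and 44 in first-instar males, 37.5-fold higher with an interval of 27.8 to 51.9 (Unigene45254_FOB). How the insects were handled before extraction is not stated in the labels, and its part in these levels was not tested.

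The heat shock unigenes did not share the adult pattern of the esterases. Small heat shock protein Unigene142638_FOB had 92, 2581 and 75 reads in first-instar, second-instar and adult males, and 41, 45, 49, 44 and 131 reads over the female stages in order. Of the 10 unigenes of the 70 and 90 families that rose, 7 were highest in male adults, 2 in early-stage female adults and 1 in second-instar males. Their summed level was 77.3, 1530 and 1100 CPM in first-instar, second-instar and adult males, against 80.8 to 527 CPM in the 5 female libraries. Mitochondrial heat shock 70 kDa protein, which imports and folds proteins in mitochondria, did not pass the rule, with 389 reads in second-instar males and 278 in first-instar males (Unigene91592_FOB, named after its values were seen).

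Cuticle genes fell. Cuticular proteins bind chitin in the cuticle, and Osiris proteins are insect membrane proteins made with forming cuticle in Drosophila. Of 18 unigenes measured 14 fell and 0 rose, with a median log2 ratio of -3.85, beside 3.69% that fell over all matched unigenes. The 14 summed to 7.33 CPM in second-instar males and 471 CPM in first-instar males, and 8 of them had 0 reads in second-instar males. Cuticle protein 8 had 1 read in second-instar males and 165 in first-instar males, 156-fold lower with an interval of 27.7 to 6210 (Unigene145358_FOB). A putative Osiris protein had 4 reads in second-instar males and 340 in first-instar males, 80.5-fold lower with an interval of 31.2 to 297 (Unigene156895_FOB). Cuticular protein 70 had 0 reads in second-instar males and 104 in first-instar males, at least 32.8-fold lower (Unigene147188_FOB). Osiris 18 had 0 reads in second-instar males and 64 in first-instar males, at least 20.2-fold lower (Unigene131426_FOB). Pupal cuticle protein Edg-78E had 0 reads in second-instar males and 65 in first-instar males, at least 20.5-fold lower, and 110 reads in male adults (Unigene54197_FOB).

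Not every cuticular unigene passed the rule. The adult-specific cuticular protein ACP-20 was the only member with a ratio above 0, with 25 reads in second-instar males and 11 in first-instar males (Unigene35996_FOB). A putative cuticle protein had 53 reads in second-instar males and 68 in first-instar males (Unigene152300_FOB). Both were named after their values were seen. Over the libraries the 14 that fell summed to 471, 7.33 and 254 CPM in first-instar, second-instar and adult males, and to 745, 176, 522, 21.2 and 24.7 CPM over the female stages in order. The level was thus above 150 CPM in 5 libraries and under 25 CPM in second-instar males and in middle- and late-stage female adults.

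Chitin enzymes fell as well. Of 40 unigenes 17 fell and 0 rose, with a median log2 ratio of -1.62, and 33 of the 40 ratios were below 0. The 17 summed to 104 CPM in second-instar males and 890 CPM in first-instar males. Chitinase 7, of the enzymes that digest chitin, had 70 reads in second-instar males and 632 in first-instar males, 8.55-fold lower with an interval of 6.67 to 11.1 (Unigene157267_FOB). Acidic mammalian chitinase had 28 reads in second-instar males and 198 in first-instar males, 6.70-fold lower with an interval of 4.50 to 10.3 (Unigene155254_FOB). The list held 20 chitinases, of which 14 fell, and 9 chitin synthases, the enzymes that build chitin, of which 2 fell. A chitin synthase 1 variant B unigene, named after its values were seen, had 10 reads in second-instar males and 68 in first-instar males, 6.44-fold lower (Unigene130403_FOB).

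Within the chitin list chitinase 5 and the hexosaminidases did not pass the rule. Chitinase 5, the main moulting chitinase of several insects, had 68 reads in second-instar males and 41 in first-instar males in the unigene with the most reads (Unigene150580_FOB). Its other unigenes had 33 reads in second-instar males and 38 in first-instar males, and 22 and 35 (Unigene37526_FOB, Unigene84460_FOB). Beta-hexosaminidase b, which trims chitin fragments, had 50 reads in second-instar males and 19 in first-instar males (Unigene143891_FOB). These were named after their values were seen.

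Ecdysone genes leaned the same way as the cuticle genes. Of 18 unigenes 4 fell and 0 rose, with a median log2 ratio of -1.02, and 15 of the 18 ratios were below 0. Cytochrome P450 307a1, known in Drosophila as spook and needed for ecdysone synthesis, had 0 reads in second-instar males and 117 in first-instar males, at least 36.9-fold lower (Unigene36940_FOB). HR3, a nuclear receptor that ecdysone induces, had 7 reads in second-instar males and 158 in first-instar males, 21.4-fold lower with an interval of 10.1 to 54.1 (Unigene149930_FOB). The ecdysone receptor itself had 55 reads in second-instar males and 83 in first-instar males, and its partner ultraspiracle 51 and 60, both named after their values were seen (Unigene116268_FOB, Unigene129026_FOB).

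Of 33 tanning enzymes, which harden and colour cuticle, 2 fell and 0 rose, beside 3.69% that fell over all matched unigenes. Both were laccase 2, the phenoloxidase that tans insect cuticle. The larger had 10 reads in second-instar males and 83 in first-instar males, 7.86-fold lower with an interval of 4.07 to 17.0 (Unigene154803_FOB). In male adults this unigene had 462 reads. Prophenoloxidase, which acts in blood clotting and melanin formation, did not pass the rule, with 273 reads in second-instar males and 179 in first-instar males in pro-phenoloxidase 2 (Unigene142720_FOB, named after its values were seen).

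Of 93 cytochromes P450, oxidases of hormones, lipids and foreign compounds, 11 fell and 3 rose, with a median log2 ratio of -0.23. The 11 summed to 46.7 CPM in second-instar males and 838 CPM in first-instar males. The P450 with the largest loss had 6 reads in second-instar males and 597 in first-instar males, 94.3-fold lower with an interval of 43.1 to 258 (Unigene153543_FOB). A second had 3 reads in second-instar males and 297 in first-instar males, 93.8-fold lower with an interval of 31.8 to 457 (Unigene139095_FOB). First-instar females had 878 reads of Unigene153543_FOB and 471 of Unigene139095_FOB. The 3 that rose summed to 251 CPM in second-instar males and 53.0 CPM in first-instar males. A putative cytochrome P-450, among the 8 largest gains, had 467 reads in second-instar males and 106 in first-instar males, 4.65-fold higher with an interval of 3.76 to 5.80 (Unigene150306_FOB). It also had 526 reads in late-stage female adults and 18 in male adults. CYP4G48, which rose too, belongs to the insect family that makes cuticular hydrocarbons, and it had 56 reads in second-instar males and 13 in first-instar males, 4.55-fold higher with an interval of 2.46 to 9.06 (Unigene153236_FOB, named after its values were seen).

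UDP-glycosyltransferases couple sugars to lipids, pigments and foreign compounds. The list of glutathione and UDP transferases had 40 measured unigenes, of which 5 rose and 2 fell, with a median log2 ratio of -0.10. All of the 7 past the rule were UDP-glycosyltransferases by their description. A glucosyl/glucuronosyl transferase had 159 reads in second-instar males and 4 in first-instar males, 42.0-fold higher with an interval of 16.1 to 156, and at most 13 reads in any other library (Unigene156120_FOB). Another had 232 reads in second-instar males and 13 in first-instar males, 18.8-fold higher with an interval of 10.8 to 35.9 (Unigene146118_FOB).

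Digestive peptidases fell more often than they rose. Of 130 unigenes 20 fell and 2 rose, with a median log2 ratio of -0.11. Cathepsin L-like protease belongs to the cysteine proteases that many bugs use in the gut, and it had 3 reads in second-instar males and 678 in first-instar males, 214-fold lower with an interval of 73.0 to 1040 (Unigene99296_FOB). Another unigene of this description had 1 read in second-instar males and 432 in first-instar males, 409-fold lower with an interval of 73.1 to 16200 (Unigene121322_FOB). Fibroinase, a cysteine protease named from the silkworm, gave the lowest ratio of any named unigene, with 1 read in second-instar males and 871 in first-instar males, 825-fold lower with an interval of 148 to 32600 (Unigene151513_FOB). Legumain, which cleaves after asparagine, had 51 reads in second-instar males and 499 in first-instar males, 9.27-fold lower with an interval of 6.94 to 12.6 (Unigene105013_FOB).

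Fibroinase and cathepsin L-like protease had most of their reads in first-instar males. Fibroinase had 871, 1 and 1 reads in first-instar, second-instar and adult males and 109, 4, 3, 4 and 4 reads over the female stages in order (Unigene151513_FOB). Cathepsin L-like protease had 678, 3 and 0 reads over the male stages and 61, 5, 3, 6 and 4 over the female stages (Unigene99296_FOB). Legumain differed, with 237 reads in late-stage female adults (Unigene105013_FOB). Of the 43 serine proteases and trypsins in the list, a grouping made after values were seen, 11 fell and 1 rose. Serine protease P54 had 3 reads in second-instar males and 147 in first-instar males, 46.4-fold lower with an interval of 15.6 to 228 (Unigene149831_FOB).

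Sugar enzymes and transporters moved upward where they passed the rule. Of 84 unigenes 6 rose and 0 fell, with a median log2 ratio of 0.13. Alpha-amylase, which cuts starch, had 69 reads in second-instar males and 8 in first-instar males, 9.10-fold higher with an interval of 4.37 to 21.9 (Unigene143141_FOB). A sucrase, which splits the main sugar of plant sap, had 48 reads in second-instar males and 3 in first-instar males, 16.9-fold higher with an interval of 5.44 to 84.8 (Unigene114008_FOB, named after its values were seen). A sugar transporter had 120 reads in second-instar males and 0 in first-instar males, at least 42.2-fold higher (Unigene155611_FOB). Both enzymes had 0 reads in male adults, and the transporter had 0 there too.

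**Figure D3:**
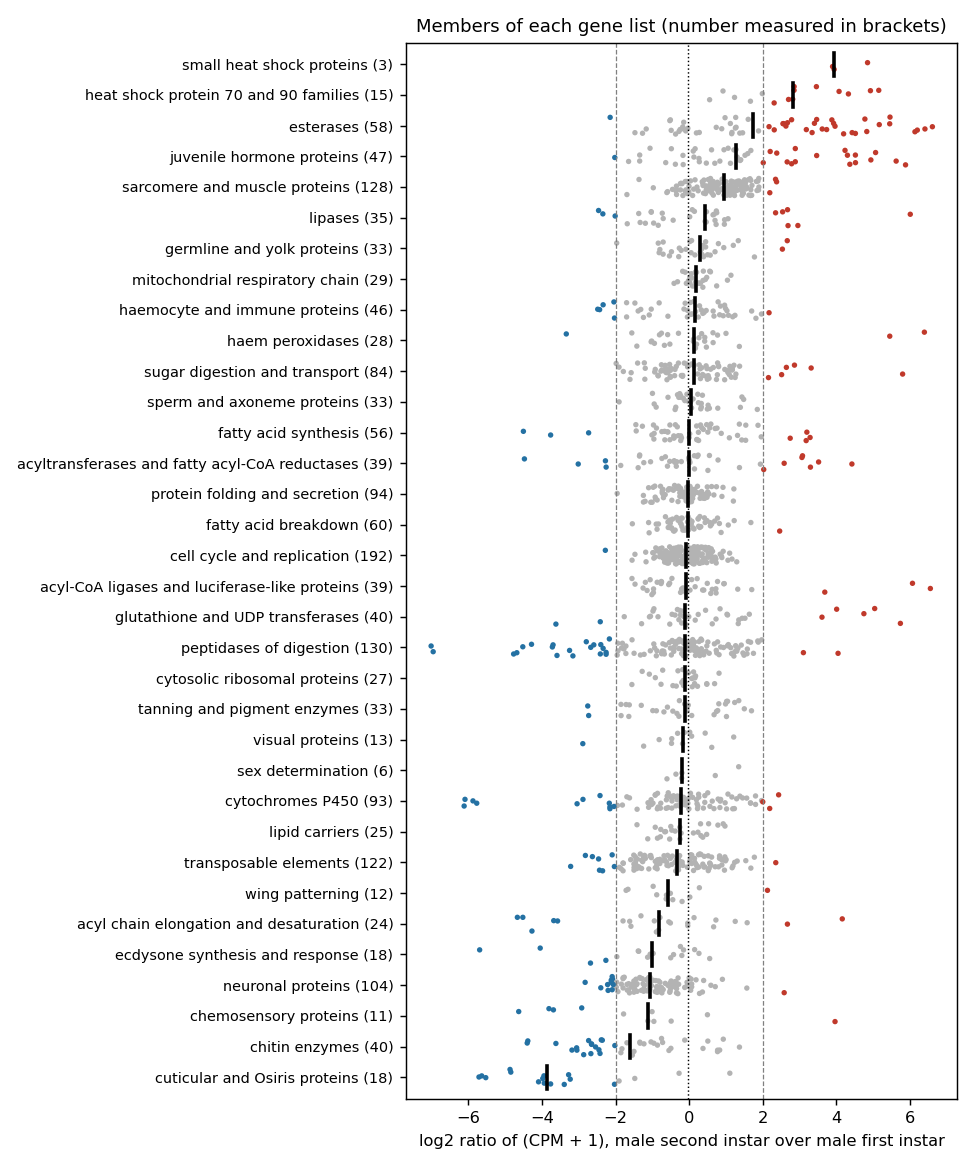
Log2 ratio of (CPM + 1), male second instar over male first instar, for each measured member of each gene list, with the number measured in brackets. Red points passed the 4-fold rule upward and blue points downward, black bars are list medians, dashed lines stand at 2 and -2 and the dotted line at the median of all unigenes, -0.04. Heat shock proteins and esterases lie at the upper end and chitin enzymes and cuticular proteins at the lower end.

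Muscle proteins were higher as a list with few past the rule. Of 128 sarcomere and muscle unigenes 3 rose and 0 fell, 105 ratios were above 0, and the median log2 ratio was 0.96. The list summed to 6000 CPM in second-instar males and 3170 CPM in first-instar males, and no member had 0 reads in either library. The 3 that rose belong to the giant elastic proteins of the sarcomere: a titin unigene had 125 reads in second-instar males and 27 in first-instar males, 4.89-fold higher with an interval of 3.20 to 7.71 (Unigene136877_FOB). A kettin unigene had 93 reads in second-instar males and 17 in first-instar males, 5.77-fold higher with an interval of 3.42 to 10.3 (Unigene79521_FOB).

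Neuronal proteins were lower as a list. Of 104 unigenes for channels, transmitter receptors and synapse proteins 10 fell and 1 rose, 90 ratios were below 0, and the median log2 ratio was -1.06. The list summed to 1550 CPM in second-instar males and 2740 CPM in first-instar males, with no member at 0 reads in either library. A high affinity GABA transporter, which clears an inhibitory transmitter, had 25 reads in second-instar males and 119 in first-instar males, 4.51-fold lower with an interval of 2.91 to 7.25 (Unigene135834_FOB). Glutamate receptor 1 had 9 reads in second-instar males and 52 in first-instar males, 5.47-fold lower with an interval of 2.67 to 12.6 (Unigene25519_FOB).

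Chemosensory proteins carry odours to receptors or act around them. Of 11 unigenes 4 fell and 1 rose, with a median log2 ratio of -1.12, and the list summed to 97.6 CPM in second-instar males and 245 CPM in first-instar males. Odorant-binding protein 4 had 1 read in second-instar males and 81 in first-instar males, 76.7-fold lower with an interval of 13.4 to 3070 (Unigene131504_FOB). Chemosensory protein 9 had 1 read in second-instar males and 41 in first-instar males, 38.8-fold lower with an interval of 6.59 to 1570 (Unigene149527_FOB). The unigene that rose was a pheromone-degrading enzyme 2 with 32 reads in second-instar males and 0 in first-instar males, at least 11.3-fold higher (Unigene151747_FOB). Of 13 visual proteins 1 fell and 0 rose, beside 3.69% that fell over all matched unigenes.

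Germline and yolk proteins had 2 risers and 0 fallers among 33 unigenes, beside 1.90% that rose over all matched unigenes. The median log2 ratio was 0.31. Both risers belong to the argonaute proteins that silence transposons in germ cells. Argonaute 3 had 66 reads in second-instar males and 9 in first-instar males, 7.74-fold higher with an interval of 3.84 to 17.7, and 194 reads in late-stage female adults (Unigene156567_FOB). PIWI had 27 reads in second-instar males and 3 in first-instar males, 9.50-fold higher with an interval of 2.92 to 48.9 (Unigene150642_FOB). Of 122 transposable element unigenes 1 rose and 8 fell, beside 1.90% that rose and 3.69% that fell over all matched unigenes. The median log2 ratio was -0.34. A link between these lists was not tested.

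Of 33 sperm and axoneme proteins 0 passed the rule, with a median log2 ratio of 0.04. None of 6 sex determination unigenes passed it. Beside 5.58% over all matched unigenes, a count of 0 in lists this short is not read as a result. The male specific isoform of doublesex, the switch gene of insect sex differentiation, had 42 reads in second-instar males and 16 in first-instar males, a log2 ratio of 1.35 (Unigene155621_FOB, named after its values were seen). Sex-lethal had 72 reads in second-instar males and 98 in first-instar males (Unigene148793_FOB). Of 12 unigenes in the wing patterning list 1 rose, beside 1.90% that rose over all matched unigenes, and the median log2 ratio was -0.56. The riser, an abnormal wing disc-like protein listed by its description alone, had 24 reads in second-instar males and 4 in first-instar males (Unigene16922_FOB). This 1 riser is not read as a result about wing patterning. Among 46 haemocyte and immune proteins 1 rose and 5 fell, beside 1.90% that rose and 3.69% that fell over all matched unigenes. The median log2 ratio of this list was 0.15.

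Housekeeping lists stayed near the median of all unigenes. Of 27 cytosolic ribosomal, 29 mitochondrial respiratory chain and 94 protein folding and secretion unigenes 0 passed the rule, beside 5.58% over all matched unigenes. In the lists of 27 and 29 a count of 0 is near that share and is not read as a result. The median log2 ratios were -0.11, 0.18 and -0.03. Of 192 cell cycle and replication unigenes 0 rose and 1 fell, a cyclin-dependent kinase 5 activator with 10 reads in second-instar males and 60 in first-instar males, a protein known mainly from neurons (Unigene112127_FOB). The ribosomal unigene with the most reads, L37, had 468 reads in second-instar males and 935 in first-instar males, 1.89-fold lower (Unigene12684_FOB).

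Other large losses among named unigenes included Cad88C, a cadherin of cell contacts, with 24 reads in second-instar males and 576 in first-instar males, 22.7-fold lower with an interval of 15.1 to 35.8 (Unigene157473_FOB). A Ptc-related protein, of the Patched family of membrane proteins, had 1 read in second-instar males and 274 in first-instar males, 260-fold lower with an interval of 46.2 to 10300 (Unigene35956_FOB). An RCC1 and BTB domain protein had 0 reads in second-instar males and 73 in first-instar males, at least 23.1-fold lower (Unigene152000_FOB). Among the large gains was shifted, a secreted protein that carries Hedgehog in Drosophila, with 399 reads in second-instar males and 68 in first-instar males, 6.19-fold higher with an interval of 4.78 to 8.13 (Unigene155770_FOB).

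Best matches by taxon were checked for other organisms. Unigenes with a Hemiptera match, the order of scale insects, rose in 2.20% and fell in 5.82% of 4948 cases. Those with a protist match rose in 7 and fell in 3 of 88 cases and took 0.362% of second-instar male reads and 0.273% of first-instar male reads. The lists for host plant and for bacteria and fungi found 0 unigenes. Named matches fell into animals and protists, with no plant, bacterial or fungal class. The count of 0 therefore cannot show that such organisms were absent. Unigenes without a match took 45.9% of second-instar male reads and 42.9% of first-instar male reads, so their organism is not known from the files.

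Across the 8 libraries many unigenes past the rule were also read outside the male larvae. Of the 1448 that rose, 856 (59.1%) had their highest level of the 8 libraries in second-instar males. Another 179 (12.4%) were highest in middle-stage female adults, 143 (9.88%) in late-stage female adults and 127 (8.77%) in male adults. Over all 36667 measured unigenes these shares were 16.8%, 11.4%, 17.5% and 13.5%, so the risers were not above the background in late-stage female or male adults. The risers took 3.72% of reads in middle-stage and 3.15% in late-stage female adults, against 1.21% to 2.07% in the other 4 libraries outside the comparison. Of the 1563 that fell, 688 (44.0%) were highest in first-instar males and 353 (22.6%) in first-instar females, against 18.6% and 10.6% of all measured unigenes. Of the 1563 fallers 75.7% had at least 20 reads in first-instar females, 63.5% in early-stage and 11.3% in late-stage female adults. Over all 36667 measured unigenes the same shares were 75.9%, 71.9% and 61.9%. The fallers were thus near the background in first-instar females and far below it in late-stage female adults. In middle-stage female adults 13.6% of the fallers had at least 20 reads, against 54.0% of all measured unigenes. The shares were 22.8% and 46.1% in male adults, and 52.1% and 72.5% in second-instar females. The choice of these unigenes by the male ratio favours the library on the high side, so the counts are a description.

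The female step from first to second instar shares no library with the male step, and fewer unigenes passed the rule in it. Of 34172 unigenes measured in females 396 rose (1.16%) and 488 fell (1.43%), 2.59% in all. Among 17332 with a protein match, 189 rose (1.09%) and 109 fell (0.629%), 1.72% in all. Among the 1448 that rose in males 80 rose in females, which is 5.52% of the male list and 20.2% of the female list. Among the 1563 that fell in males 140 fell in females, 8.96% of the male and 28.7% of the female list. In opposite directions were 12 unigenes that rose in males and fell in females and 5 that fell in males and rose in females. Across the 30448 unigenes measured in both steps, Pearson's r of the log2 ratios was 0.26 and Spearman's rho 0.11. That correlation is across genes, which are not independent replicates, and all 4 libraries share the assembly.

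Several list medians that lay far from 0 in males lay nearer 0 in females. Over all matched unigenes in females 1.09% rose and 0.629% fell, so a count of 0 in a short list is near that share and is not read as a result. Female values in this comparison are over the list members measured in males. The 58 esterases had a median log2 ratio of 1.75 in males and 0.14 in females, where 0 passed the rule. For juvenile hormone esterases the median was 1.60 in males and 0.60 in females, with 0 past the rule in females. Chitin enzymes had a median of -1.62 in males and 0.14 in females, again with 0 past the rule in females. Small heat shock proteins had a median of 3.95 in males and -0.21 in females, and 0 of them passed in females. With 1 library in each of the 4 groups the difference between the sexes was not tested.

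Some lists went the same way in both sexes. Muscle proteins had a median log2 ratio of 0.96 in males and 0.97 in females, with 11 unigenes past the rule in females, all of them titin or kettin. Elongases and desaturases had a median of -0.81 in males and -0.82 in females. Cuticular and Osiris proteins had 14 fallers and a median of -3.85 in males, against 8 fallers and -1.81 in females. Cuticular protein 70 had 0 reads in second-instar males and 104 in first-instar males, and 39 in second-instar females and 238 in first-instar females (Unigene147188_FOB). The wax alcohol acyltransferase-like unigene rose in both sexes, with 119 reads in second-instar females and 26 in first-instar females (Unigene135904_FOB). The putative diacylglycerol O-acyltransferase did so too, with 335 reads in second-instar females and 67 in first-instar females (Unigene122819_FOB).

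**Figure D4:**
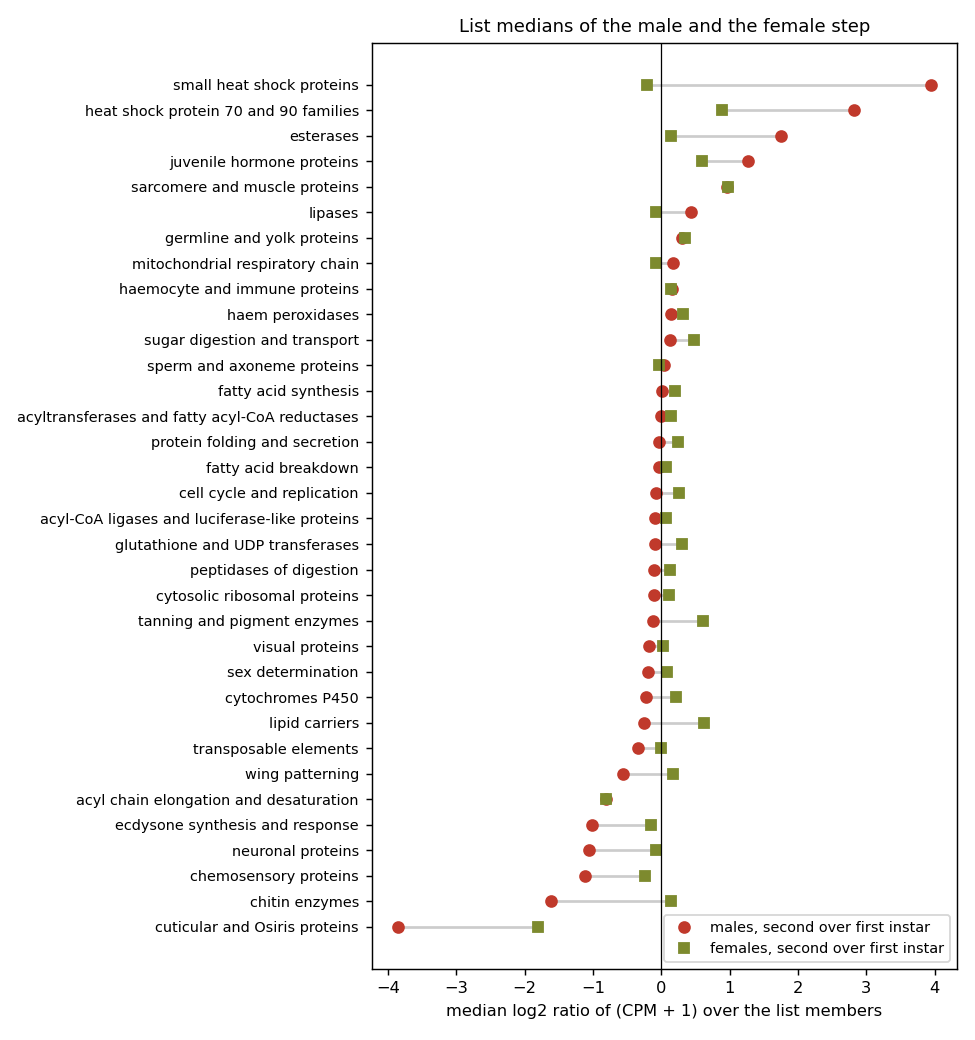
Median log2 ratio of (CPM + 1) over the measured members of each list, second over first instar, in males (red circles) and females (green squares), with a grey line joining the pair. The gap is widest for small heat shock proteins, 3.95 in males against -0.21 in females, and near 0 for muscle proteins and for elongases and desaturases.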

How the data were processed

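RNA was measured in 8 libraries, 1 per group, so a group has no replicate. The authors deposited for each unigene the count of uniquely assigned reads, with its total in the header, the RPKM and the percent of length covered, beside gene ontology terms and a best match among proteins, per the file headers. Unigenes not listed were taken as 0 reads. The deposited RPKM, recomputed from count, length and total, differed by a relative gap of at most 1.28e-09, and the percent covered was used only for description. Aligner, assembler and strand setting: not given in the sources used here. How reads of near-identical unigenes were shared is not known. No sequences or genome were used.

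CPM is reads over the header total. Folds and their intervals use CPM without an added amount, while the rule, log2 ratios and list medians use CPM + 1. A library at 0 reads entered at 3 reads per library, written "at least". Lists are word patterns searched in the match descriptions. The comparison, its members and the lists were chosen with earlier results of these data known, and some patterns were narrowed or widened by what the descriptions name after values had been seen. Unigenes to name came from those that passed and have a named protein: the 12 highest and 12 lowest ratios and the 8 largest gains and losses in CPM, 1 per description, and up to 4 per list by reads, or the most read member where none passed. Not every list pick is printed. Others are said to be named after their values were seen. The CPM, ratios and intervals were computed from the counts. Alternatives used TMM factors (edgeR 4.0.16), median-of-ratios factors, 0.5 or 5 CPM added, other read minimums, a 2-fold rule, RPKM and narrower sets of unigenes. Python 3.11.15, pandas 2.3.3 and scipy 1.17.1 were used.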

Additional observations from a re-analysis of the deposited data

Results flagged for a closer look

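Among unigenes with a named protein, 3 passed the 4-fold rule in both sexes in opposite directions, and the difference between the sexes was not tested. A unigene matching the crystal chain of mammalian fatty acid synthase had 0 reads in second-instar males and 29 in first-instar males, but 25 in second-instar females and 5 in first-instar females, a male minus female difference of -5.87 on the log2 scale (Unigene128623_FOB). Carbonic anhydrase 6, which interconverts carbon dioxide and bicarbonate, had 48 reads in second-instar males and 427 in first-instar males, but 160 in second-instar females and 35 in first-instar females, a difference of -5.34 (Unigene155739_FOB). A DEAD box RNA helicase had 43 reads in second-instar males and 9 in first-instar males, but 8 in second-instar females and 45 in first-instar females, a difference of 4.13 (Unigene56771_FOB).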

How the results depend on the processing

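The main counts were 1448 unigenes higher and 1563 lower in second-instar males. With TMM factors, median-of-ratios factors, 0.5 CPM added or RPKM they stayed within 1.5 times, between 1405 and 1673 higher and between 1510 and 1806 lower. They moved to 555 higher and 515 lower with 5 CPM added, to 2635 and 2636 with no minimum of reads, to 320 and 271 with at least 100 reads, to 4720 and 5096 with a 2-fold rule, to 700 and 709 where the counting interval had to lie past 4-fold, and to 359 and 698 among matched unigenes alone. In females, 396 higher and 488 lower became 84 and 123 with 5 CPM added, 798 and 1198 with no minimum, and 68 and 94 with at least 100 reads. Over all lists 226 members passed the rule, and 118 did with 5 CPM added, 75 with at least 100 reads and 102 with 1 unigene per description. These alternatives change the rule or the unigenes counted. No named unigene or list median that was tried changed sign past the rule. For named unigenes this could hardly fail. Adding 5 CPM to both levels cannot change a sign, and the TMM factors were 1.054 in second-instar and 1.067 in first-instar males. With TMM factors all 34 list medians were marked the same. With at least 100 reads 14 were marked as moved and 19 as the same. With 1 unigene per description 27 list counts were marked as moved and 41 as the same. Of 106 unigenes chosen for naming and past the rule, 105 still passed with TMM factors and 78 with 5 CPM added. The median log2 ratio of all unigenes was -0.04, -0.02 with TMM factors and -0.05 with median-of-ratios factors. No paired analysis was possible because each group held 1 library. Leaving out a library was not possible for the same reason. Depth limits low levels: 3 reads stood for 1.37 CPM in second-instar males and 1.30 CPM in first-instar males.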

Other observations

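Gene ontology terms with at least 30 measured unigenes numbered 348, and those named here were chosen after their values were seen. Carboxylesterase activity had 14 risers (14.9%) and 6 fallers (6.38%) among 94 unigenes, with a median log2 ratio of 0.22. Polysaccharide binding had 12 fallers (32.4%) and 2 risers among 37 unigenes, and hydrolysis of O-glycosyl bonds had 15 fallers and 2 risers among 50. Of the 20 largest gains in CPM 8 had no protein match, and of the 20 largest losses 4 had none. The unmatched unigene with the most reads among the risers had 940 reads in second-instar males, and the one among the fallers had 1035 reads in first-instar males.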
